A study of Drosophila melanogaster with 2 samples.

Results

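Promoter-proximal intronic peaks of the transcription factor Mad were those whose summit lay inside an annotated gene, in no exon, and more than 500 bp but at most 2000 bp from the nearest annotated transcription start site (TSS). Of the 3590 peaks that passed the authors' reproducibility threshold, 437 met this rule, and their values are set against 2181 promoter peaks (summit within 500 bp of a TSS) and 525 distal intronic peaks (in an intron, more than 2000 bp from any TSS). The peaks come from chromatin immunoprecipitation and sequencing (ChIP-seq) with an anti-GFP antibody on whole Drosophila melanogaster embryos aged 0 to 24 h, males and females pooled. All embryos carried a transgene for Mad with enhanced GFP at its C-terminus, from a single transgenic line whose insertion targets Mad per the labels, and formed 1 group of 2 biological replicates. The control library was not used here, and there was no second condition. Each peak's signal is the value the authors' peak caller wrote, which is a measure of enrichment with no stated formula, and read depth is unknown. Since whole embryos over the whole of embryogenesis were pooled, a strong site in few cells and a weak site in many cannot be told apart. The pooled list is a single list, so every interval and p-value below covers counting error over its peaks and not the spread between embryos.

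Mad is a receptor-regulated Smad protein of the fly. Receptors activated by the bone morphogenetic protein (BMP) ligand Dpp phosphorylate it, after which it enters the nucleus with the co-Smad Medea, binds GC-rich sites, and can activate targets or, with Schnurri, repress them. The first part of an intron close to a start site is a common place for enhancers and for alternative promoters, and compact fly genes hold many of their regulatory elements there.

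The sequences below are the 201 bp windows centred on the summits of 6 members, on the plus strand of build dm6. Capitals mark the words that stood out at these summits, the 6-base word ACAGTG and the 8-base word CACTGTGC, each on either strand. The first 3 windows are those of the strongest member (nearest to cbt), the third strongest (Lk6) and the stronger of the members in Mad itself. The other 3 are among the strongest members that hold the 8-base word. The selection was made after the values were seen.
cbt (chr2L:480967-481167): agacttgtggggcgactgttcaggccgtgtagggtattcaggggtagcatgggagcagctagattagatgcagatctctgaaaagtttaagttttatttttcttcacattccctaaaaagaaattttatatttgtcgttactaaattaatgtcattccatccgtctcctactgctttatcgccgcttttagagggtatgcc
Lk6 (chr3R:11760953-11761153): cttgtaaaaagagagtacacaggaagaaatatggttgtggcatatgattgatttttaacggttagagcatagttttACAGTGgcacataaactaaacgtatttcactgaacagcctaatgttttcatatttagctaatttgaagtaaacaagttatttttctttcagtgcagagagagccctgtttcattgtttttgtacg
Mad (chr2L:3153295-3153495): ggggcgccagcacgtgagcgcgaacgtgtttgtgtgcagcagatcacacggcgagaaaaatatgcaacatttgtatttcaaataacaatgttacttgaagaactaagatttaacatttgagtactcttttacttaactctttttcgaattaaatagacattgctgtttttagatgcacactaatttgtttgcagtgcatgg
schlank (chrX:6265499-6265699): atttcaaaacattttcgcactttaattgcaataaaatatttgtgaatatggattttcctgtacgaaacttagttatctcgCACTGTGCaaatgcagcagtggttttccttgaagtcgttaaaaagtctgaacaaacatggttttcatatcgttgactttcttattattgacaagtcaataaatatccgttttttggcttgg
Csk (chr3R:11649549-11649749): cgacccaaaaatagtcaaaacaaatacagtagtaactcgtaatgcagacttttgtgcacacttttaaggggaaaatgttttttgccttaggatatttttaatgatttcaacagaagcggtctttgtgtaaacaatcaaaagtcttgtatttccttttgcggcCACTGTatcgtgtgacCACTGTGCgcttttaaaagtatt
CG32767 (chrX:5083673-5083873): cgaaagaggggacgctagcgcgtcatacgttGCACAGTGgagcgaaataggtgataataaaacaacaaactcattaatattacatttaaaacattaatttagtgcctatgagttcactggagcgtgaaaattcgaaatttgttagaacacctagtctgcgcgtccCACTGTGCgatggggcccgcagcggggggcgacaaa
The cbt and Mad windows hold neither word, whereas CG32767 holds the 8-base word on both sides of its summit. The Csk window holds both the 8-base word and a second match to the 6-base word.

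The strongest member had its summit in the first intron of ush, which encodes the cofactor U-shaped, 1379 bp upstream of the TSS of cbt, a zinc-finger gene. It reached 559 in replicate 1, 674 in replicate 2 and 1239 in the pooled list, which is the second highest of all 3590 peaks. The next was in CG11050, 1028 bp downstream of its TSS, with 507 in replicate 1, 637 in replicate 2 and 1138 pooled. Both lay far above the median member, which had a pooled signal of 108. Lk6, a protein kinase gene that acts on translation, carried a member with 389 in replicate 1, 500.01 in replicate 2 and 888 pooled. HmgZ, an HMG-box chromatin protein gene, held a peak interval with 2 member summits, with pooled signals of 757 and 438. That interval had 1 signal per replicate, 328 in replicate 1 and 431 in replicate 2.

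Trl, the gene of the GAGA factor, had a signal of 271 in replicate 1, 296 in replicate 2 and 565 pooled, and 2 further members with 123 and 85.9 pooled. Adf1, a transcription factor gene, had 474 pooled, and wde, a cofactor of the histone methyltransferase Eggless, had 464 pooled. NFAT, the fly member of that transcription factor family, had 411 pooled. Others of the 20 lay in genes of cell junctions (cno, 500.5 pooled), replication (chif, the Dbf4 homologue, 464 pooled), phospholipid synthesis (LPCAT, 453 pooled) and RNA binding (mub, 408 pooled). CG9663, CG32772, CG9837 and CG3726 had between 425 and 742 pooled.

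Mad itself carried 2 members. The stronger (chr2L:3153269-3153556, summit in the first intron, 642 bp upstream of an internal TSS) had a signal of 156 in replicate 1, 307 in replicate 2 and 463 pooled. The weaker (chr2L:3158548-3158943, 897 bp downstream of a TSS) had 49.9 in replicate 1, 57.8 in replicate 2 and 91.0 pooled, and its window held a match to the Mad site GCCGNCGC. Both lay in introns of the gene whose tagged copy the embryos carried.

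**Figure D1:**
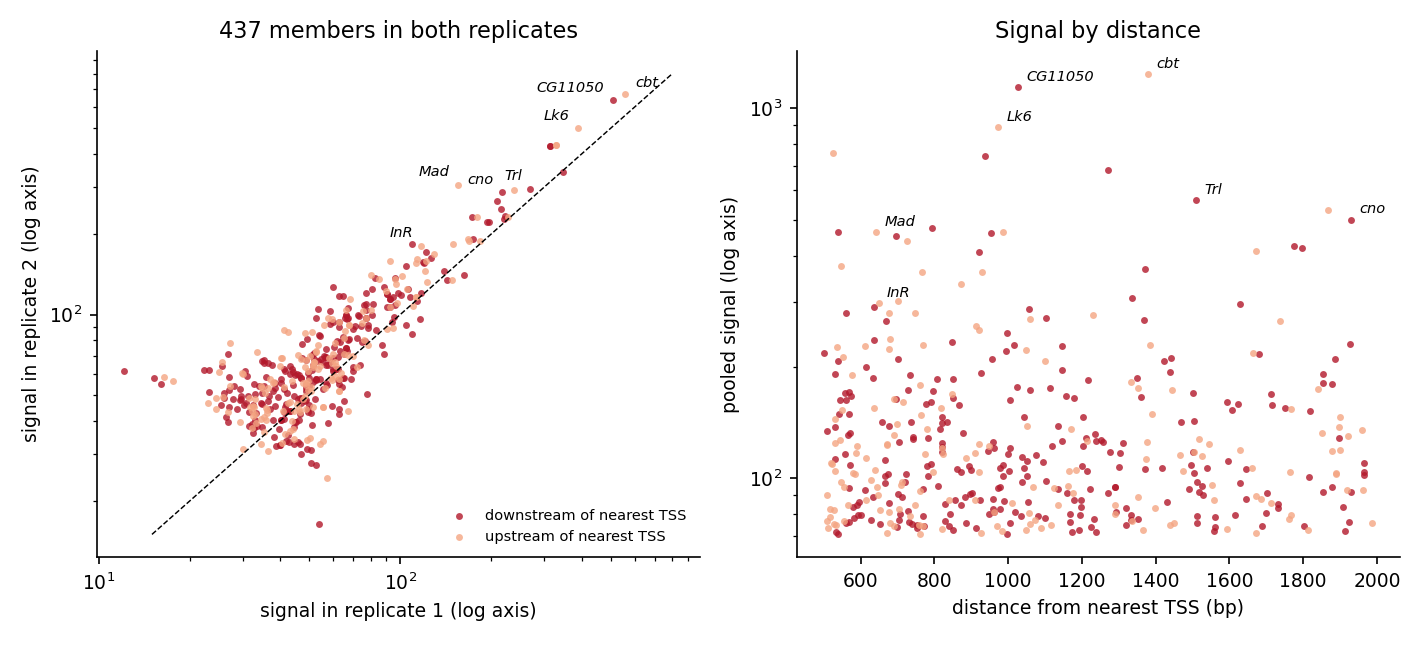
Each point is 1 of the 437 members. Left, signal in replicate 1 against replicate 2 on log axes, with a dashed line of equal values; right, pooled signal on a log axis against distance from the nearest TSS in bp. Dark points lie downstream and light points upstream of that TSS. Points lie above the line for 340 members, and strong members occur along the whole range of distance.

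The class held 12.2% of thresholded summits (437 of 3590, 95% Wilson interval 11.1 to 13.3%), while the sequence that meets the rule makes up 8.54% of the genome arms used. This is 1.43 times the share of bases. Promoters held 4.48 times and distal introns 0.473 times their share of bases. In pooled-list peaks below the threshold, 2919 of 25742 summits (11.3%) met the rule, which is 1.33 times the share of bases. The deposited name of that pooled list says that it includes background. When the list of a single replicate was cut at its strongest 3590, 442 (12.3%) met it in replicate 1 and 436 (12.1%) in replicate 2.

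Within introns, peaks thinned out with distance from the TSS through the class and beyond it. There were 51.02 thresholded summits per Mb of intron at 500 to 1000 bp (225 members), 32.6 at 1000 to 1500 bp (123 members) and 27.4 at 1500 to 2000 bp (89 members). Intronic sequence closer to a TSS had 157 per Mb within 250 bp and 63.9 at 250 to 500 bp, and sequence farther away had 22.1 per Mb at 2000 to 3000 bp and 5.52 beyond 10000 bp. The fall over the class was thus 1 stretch of a longer slope, with no step at either limit. The strongest 3590 peaks of replicate 1 gave 52.6, 33.2 and 26.1 per Mb over the same 3 bins, and those of replicate 2 gave 48.3, 33.4 and 29.8. Peaks below the threshold declined less, with 269, 251 and 242 per Mb over these bins.

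**Figure D2:**
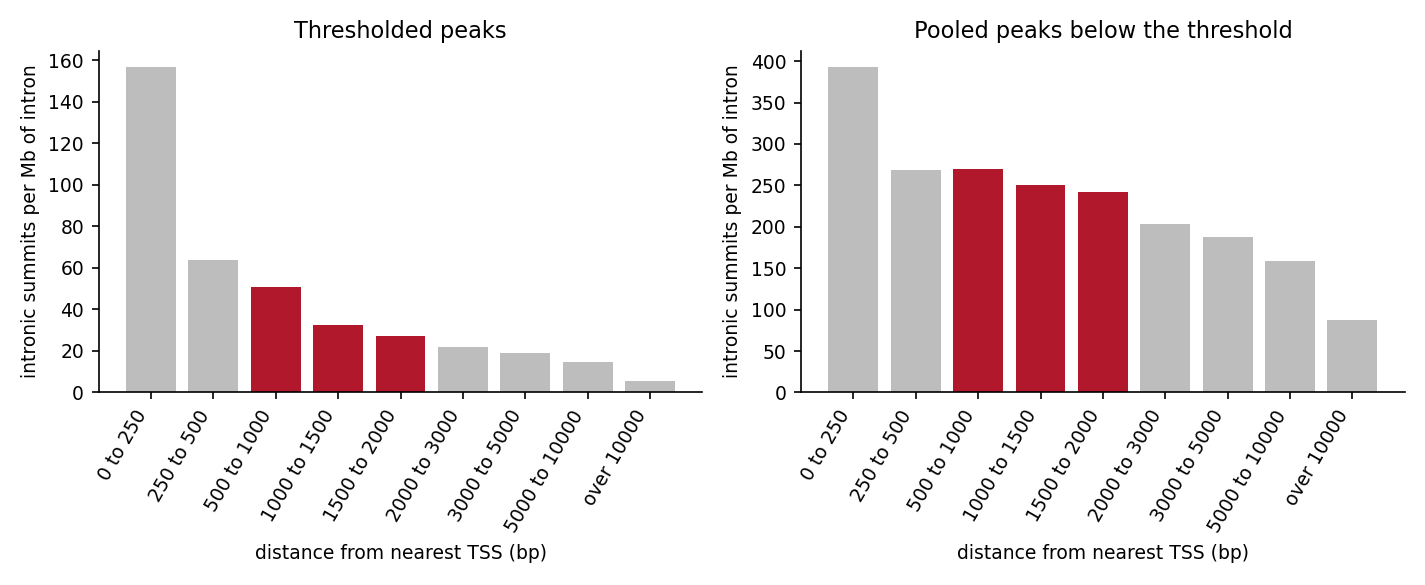
Summits in introns per Mb of intron by distance from the nearest TSS, for thresholded peaks (left) and pooled-list peaks below the threshold (right). Red bars are the distances of the class (51.02, 32.6 and 27.4 per Mb on the left), and grey bars are other introns.

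Signal did not follow this decline. The median pooled signal was 112 in the 125 members at 500 to 750 bp and 119 in the 41 members at 1750 to 2000 bp, with 101 to 111 in the bins between. The few members next to the limits had pooled signals from 75.8 to 219, against quartiles of 84.7 and 160.4 over all members. CG31523 (501 bp from the TSS, signal 219), lncRNA:CR43716 (508 bp, 89.9) and cic (508 bp, 76.7) lay just inside the lower limit, and t-cup (493 bp, 140), RapGAP1 (493 bp, 77.0) and CG3638 (482 bp, 154) just outside it. At the upper limit, toc (1987 bp, 75.8), RhoU (1965 bp, 110) and RhoGAP18B (1964 bp, 102) lay inside, and FucTD (2002 bp, 77.5), CG12290 (2005 bp, 172) and IP3K2 (2010 bp, 130) outside.

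Most members lay in a first intron. A first intron of at least 1 transcript held 365 of 437 summits (83.5%, interval 79.8 to 86.7%), against 64.3% of 22861 bases sampled from all sequence that meets the rule. The summit lay in a gene to which its nearest TSS belonged for 374 members (85.6%), against 71.2% of the sampled bases. Of these, 255 (58.4% of members, against 54.6% of bases) lay downstream of the TSS, and 119 (27.2%, against 16.6% of bases) lay upstream of an internal TSS of the gene that spans them. Lk6, Mad, brat and InR were of the second kind. The remaining 63 had the TSS of another gene nearest to them, 48 of them upstream of it (10.98%, against 18.9% of bases) and 15 downstream (3.43%, against 9.95% of bases). Over all members, 270 (61.8%, interval 57.1 to 66.2%) lay downstream of the nearest TSS, close to the 64.5% of sampled bases that do. The sampled bases were not matched to members by distance from the TSS, along which member density fell. The part of distance in these differences from the bases was not tested. The median intron holding a member was 5189 bp long.

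The members spread over 380 nearest genes, of which 44 had more than 1 member and HmgZ, shn and CG10543 had 4 each. The nearest TSS was that of a protein-coding gene for 403 members and of a noncoding RNA gene for 27. The next thresholded summit was a median of 2814 bp away, and 93 members had one within 1000 bp. A thresholded summit also lay within 500 bp of the nearest TSS for 105 members (24.0%), against 104 distal intronic peaks (19.8%), a difference of 4.22 percentage points (interval −1.01 to 9.51, Fisher's exact test, two-sided p = 0.117). A setting with 1000 bp in place of 500 bp changed both the lower limit of the class and the distance allowed between the TSS and that summit. It gave a difference of 11.99 points (Fisher's exact p = 0.00221), which is not the same measure.

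The X chromosome held more members for its sequence than the autosomes. It carried 102 members, 46.3 per Mb of sequence that meets the rule, against 33.8 to 38.7 per Mb on 2L, 2R, 3L and 3R, which carried 76 to 101 each. Members were 16.4% of the thresholded peaks on X and 10.8 to 11.9% on those 4 arms. Chromosome 4 had 0 members among 19 thresholded peaks. Embryos of both sexes were pooled, and no test was made of the difference between arms.

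In signal the class lay close to promoter peaks and slightly above distal intronic ones. Members had a median pooled signal of 108 (quartiles 84.7 and 160.4, range 70.6 to 1239), against 109 for promoter peaks and 101 for distal intronic peaks. By replicate the member medians were 51.7 in replicate 1 and 62.0 in replicate 2, against 52.5 and 61.7 for promoter peaks and 45.5 and 58.2 for distal intronic peaks. The signal was above the median of the whole list, 106, in 227 of 437 members (51.9%) and in 52.2% of promoter peaks, a difference of −0.23 points (interval −5.36 to 4.87, Fisher's exact test, adjusted p = 0.958). In distal intronic peaks it was above in 45.3%, a difference of 6.61 points (interval 0.27 to 12.9) that missed the threshold after adjustment over both comparisons (p = 0.0446, adjusted exact p = 0.0893). Set at the upper quartile of signal, the difference from distal intronic peaks was 9.94 points (adjusted exact p = 0.000474).

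All 437 members overlapped a peak in each replicate's own list of 30000, as did all 525 distal intronic and 2176 of 2181 promoter peaks. The thresholded list was chosen for reproducibility, so this overlap was largely fixed by that choice. In 338 members (77.3%) the overlapping peak was among the 3590 strongest of both replicates, against 76.2% of promoter peaks (adjusted p = 0.666, Fisher's exact test) and 69.9% of distal intronic peaks (difference 7.44 points, interval 1.83 to 12.9, adjusted p = 0.0208). This share is also a cut on signal, so it is not independent of the signal comparison above. The difference from distal intronic peaks was 12.02 points with the 2000 strongest of each replicate (adjusted exact p = 0.000394), and it also passed at a lower limit of 250 bp (adjusted exact p = 0.0155) and an upper limit of 3000 bp (adjusted exact p = 0.0243). It passed neither when summits had to lie within 100 bp of each other (5.07 points, adjusted exact p = 0.196) nor at a lower limit of 1000 bp (adjusted p = 0.092), an upper limit of 1000 bp (adjusted p = 0.244) or with TSSs of protein-coding genes only (adjusted p = 0.0701). Among the 1000 strongest peaks it could not be assessed, since 100% of each class were among the strongest of both replicates. Of the other members, 35 were among the strongest of replicate 1 alone, 57 of replicate 2 alone, and 7 of neither. Across the 437 members the replicate signals were related with a Spearman rho of 0.762 and, on the log2 scale, a Pearson r of 0.839. These describe peaks chosen for reproducibility and are given without a test.

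Signal was higher in replicate 2 in 340 members (77.8%), against 73.8% of promoter peaks (difference 4.04 points, interval −0.46 to 8.15, Fisher's exact test, adjusted p = 0.163) and 80.8% of distal intronic peaks (difference −2.96 points, interval −8.15 to 2.16, adjusted p = 0.263). The log2 ratio of replicate 2 over replicate 1 had a median of 0.30 and an SD of 0.45 over members. The lists were called separately, so the replicate levels do not share a scale. The ratio exceeded 1 on the log2 scale in 21 members and was under −1 in 2. The extremes were weak peaks. CG15365 had 12.1 in replicate 1 and 61.6 in replicate 2, and cnc, the gene of a stress-response and head-patterning factor, had 53.7 in replicate 1 and 16.4 in replicate 2.

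Member summits lay in a narrow AT-rich trough. The 201 bp at the summit had a median GC content of 35.8%, against 41.0% in the flanks of the same length centred 600 bp to each side (median of the paired differences −5.22 points). GC content was lower than in the flanks in 311 members and higher in 123 (exact sign test, two-sided p = 7.27e-20). Right-hand flank centres fell in exons for 99 members and left-hand ones for 104, and the part of exon sequence in the difference was not tested. Against 44650 windows of 201 bp from other sequence that meets the rule, whose median was 39.3%, the summits were also lower. Soft-masked repeats made up 19.7% of summit windows and 19.1% of right flanks, and 0 member summits lay in an annotated transposable element.

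The trough was similar in distal introns and broader at promoters, where GC content at the summit was higher. In windows of 51 bp, mean GC content at the summit was 34.0% in members, 38.3% in promoter peaks and 33.3% in distal intronic peaks. In the same order it was 44.3%, 42.7% and 44.3% at 250 bp to the right, and 41.4%, 45.4% and 40.1% at 600 bp. Whether the promoter trough was shallower thus depended on the distance compared. GC content of the 201 bp was above the median of the whole list in 190 members (43.5%), against 52.5% of promoter peaks (difference −9.07 points, interval −14.1 to −3.93, Fisher's exact test, adjusted p = 0.00129) and 42.3% of distal intronic peaks (difference 1.19 points, interval −5.06 to 7.45, adjusted p = 0.744). The difference from promoter peaks depended on the window. With 200 bp to each side it was 2.43 points in the opposite direction (adjusted exact p = 0.371), and in the strongest 3590 peaks of replicate 1 alone it was −5.50 points (adjusted p = 0.0742).

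**Figure D3:**
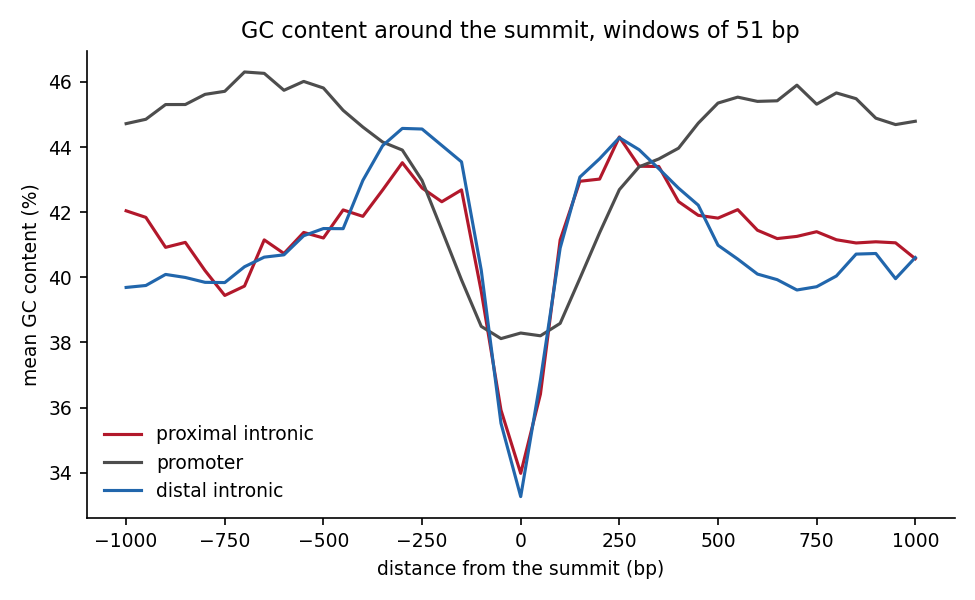
Mean GC content in percent of 51 bp windows by distance from the summit in bp, for proximal intronic, promoter and distal intronic peaks. The proximal and distal intronic lines fall to 34.0% and 33.3% at the summit and rise to about the same shoulders at either side, and the promoter line is broader and flatter, with 38.3% at the summit.

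A set of 30 known motifs were sought on both strands within 100 bp of each summit, counting a window once however many matches it held. Mad's own sites were rare at members. GCCGNCGC was found in 6 members (1.37%), against 2.75% of right flanks, 1.70% of promoter summits, 0.571% of distal intronic summits and 1.43% of all other windows of that length that meet the rule. The 6 lay nearest to CG32772 (signal 682), kdn (107), CR46447 in Hr4 (106), Mad (91.0), kel (77.2) and asRNA:CR44375 in Cdk4 (71.0). GGCGCC, bound by Brinker, the repressor of Dpp targets, and by Mad, was in 12 members (2.75%), against 3.20% of right flanks, 4.72% of promoter summits, 4% of distal intronic summits and 2.03% of other windows. The bipartite element of GNCGNC and GTCTG 5 bases apart, through which Mad, Medea and Schnurri repress genes such as brk, was in 1 member, nearest to unc-119.

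No motif of the 30 passed the test of summits against right flanks (exact McNemar test with Benjamini-Hochberg adjustment, 0% of those tested higher and 0% lower, 4 with unadjusted p under 0.05). Those 4 were the TATA box TATAAAAG (2.97% of summits and 0.686% of flanks) and the homeodomain site TAATTA (16.5% and 10.5%), and, less often at summits, the CA repeat CACACACA (4.58% and 8.24%) and the T-box site GGTGTGA (0.687% and 3.20%). Their adjusted exact p lay between 0.208 and 0.246. Against the left flanks, 1 passed, the CA repeat, which 4.58% of summits and 10.8% of left flanks held (adjusted exact p = 0.0269). Against distal intronic summits 0 passed (Fisher's exact test with Benjamini-Hochberg adjustment, 1 with unadjusted p under 0.05).

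The rule keeps annotated TSSs out of member windows and places promoter summits near them, so a lower share of core promoter motifs in members is not independent of it. Of the 30 motifs, 5 were less frequent at member summits than at promoter summits (16.7% of those tested) and 1 was more frequent (3.33%), by Fisher's exact test with Benjamini-Hochberg adjustment. The DREF site TATCGATA, a mark of housekeeping promoters, was in 1 member (0.229%) and 9.77% of promoter summits (adjusted exact p = 5.35e-15), and 0.443% of other windows that meet the rule. CATCNCTA, core promoter motif 7, was in 0.229% of members and 8.07% of promoter summits (adjusted exact p = 3.54e-12), and 1.04% of other windows. GGTCACACT, the site of M1BP, which acts on paused promoters, was in 0 members, which allows a share of up to 0.686% (3 counts of 437, counting error only), and in 5.09% of promoter summits (adjusted exact p = 1.80e-08). The E-box CAGCTG was in 7.32% of members and 13.6% of promoter summits (adjusted exact p = 0.0014), and GGTGTGA in 0.687% and 2.80% (adjusted p = 0.0299). TGANTCA, the AP-1 site of Jun and Fos proteins, was the one more frequent in members, with 6.86% and 3.71% (adjusted exact p = 0.0299) and 5.54% of other windows. Distal intronic summits held the DREF, M1BP and core promoter motif 7 sites in 0.190%, 0.190% and 0.952% of cases. In the 1000 strongest peaks the differences from promoters for M1BP (adjusted exact p = 0.495), motif 7 (0.0804) and CAGCTG (0.463) missed the threshold. That for CAGCTG also did so at a lower limit of 1000 bp (adjusted exact p = 0.372) and with windows of 50 bp (0.128) or 200 bp (0.0848) to each side. The AP-1 and T-box differences missed the threshold in each replicate's strongest peaks, with adjusted exact p of 0.148 or more.

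**Figure D4:**
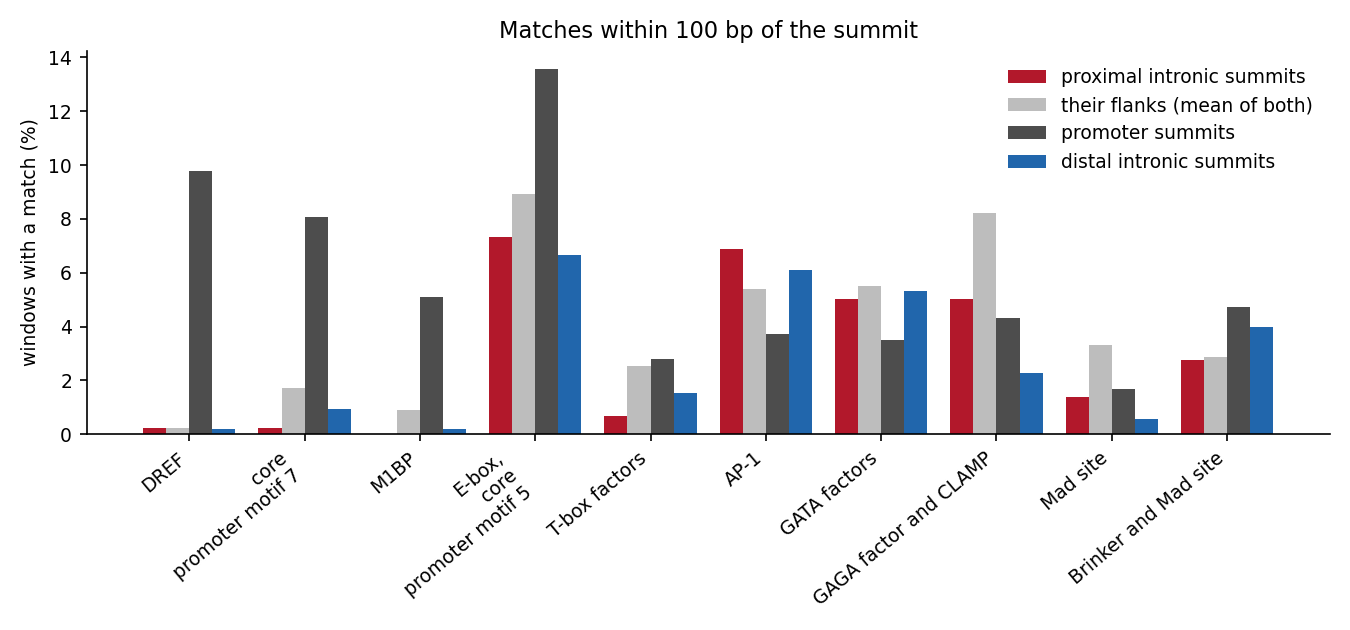
Share of 201 bp windows with a match, in percent, for 10 of the 30 motifs, named by factor. Bars from left to right within each motif are proximal intronic summits, their flanks (mean of both sides), promoter summits and distal intronic summits. DREF, core promoter motif 7 and M1BP matches are near 0 at proximal and distal intronic summits and at 5.09% to 9.77% of promoter summits.

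Since the known motifs gave no call against the flanks, every 6-base word was compared in the same way, which was decided after that result was seen. Of 2080 words, counted with their reverse complements, 84 were more frequent at member summits than at right flanks (4.04% of those tested) and 42 less frequent (2.02%), by exact McNemar tests with Benjamini-Hochberg adjustment, and 447 had unadjusted p under 0.05. Of the 84, 70 had at most 2 G or C letters, led by TTAAAA (48.3% of summits, 28.4% of flanks, adjusted exact p = 5.72e-06), which was in 35.2% of other windows that meet the rule. Of the 42 words less frequent at summits, 30 had more than 3 G or C letters.

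Words with 3 or more G or C letters made up the rest of the 84. ACAGTG led these 14, in 111 members (25.4%) against 11.4% of right and 9.84% of left flanks (adjusted exact p = 9.46e-05 against the right), 7.43% of other windows that meet the rule, 18.0% of promoter summits and 22.3% of distal intronic summits. AGGGTA was in 10.5% of members and 2.75% of right flanks, and 4.65% of other windows (adjusted exact p = 0.000202). CTGTAC was in 12.1% of members and 3.66% of right flanks, and 3.99% of other windows (adjusted exact p = 0.000293). CAGTGC (18.5% and 8.24%), ACTGTG (18.1% and 8.47%), CTGTGC (16.7% and 8.47%), CACTGA (17.2% and 8.70%) and ACACTG (15.6% and 8.01%) share letters with ACAGTG or its complement CACTGT and are not independent of it. The ACAGTG difference was 20.8 points in the members over 1000 bp from the TSS (adjusted exact p = 0.000129) and 7.56 points in those at most 1000 bp away (adjusted exact p = 0.349), and the difference between these parts of the class was not tested.

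Among 30367 words of 8 bases, 1 passed, CACTGTGC (0.00329% of those tested), which contains CACTGT. It was in 31 members (7.09%) against 0.458% of right flanks and 0.687% of left flanks (adjusted exact p = 0.00397), 0.840% of other windows, 3.48% of promoter summits and 6.10% of distal intronic summits. CACAGTGG, in 6.41% of members and 0.686% of right flanks, and ACAGTGGT, in 5.03% and 0.229%, followed with an adjusted exact p of 0.0579 each. No factor is named for these words here. In the strongest 3590 peaks of replicate 1 the difference for CACTGTGC was 5.43 points and did not pass (adjusted exact p = 0.258), as with the narrower classes of 500 to 1000 bp (4.89 points) and 1000 to 2000 bp (8.49 points).

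ACAGTG was densest at 50 to 100 bp from the summit. Per member and kb, its matches were 1.69 and 1.92 at 50 to 100 bp to the left and right, 1.28 and 1.05 within 50 bp, and 0.481 and 0.709 at 200 to 300 bp. At 100 to 150 bp they were 1.19 and 1.24. CACTGTGC had only 6 to 11 matches in each 50 bp bin out to 150 bp, with 0.503 and 0.412 per member and kb at 100 to 150 bp, 0.458 on each side at 50 to 100 bp, 0.275 and 0.366 within 50 bp, and 0.114 on each side at 200 to 300 bp. TTAAAA had 4.35 and 3.799 within 50 bp, 4.39 and 3.16 at 50 to 100 bp, and 1.62 and 1.49 at 200 to 300 bp. Counted within 50 bp of the summit alone, the ACAGTG difference from the flank was 4.35 points and did not pass (adjusted exact p = 0.217).

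Members with the 8-base word were of ordinary strength, with a median signal of 109 against 108 for the rest. Of the 31, 11 lay on 3R, 9 on X, 8 on 2R, 2 on 2L and 1 on 3L, and 74.2% lay downstream of the nearest TSS. Strong ones were in schlank, the ceramide synthase gene (109 in replicate 1, 184 in replicate 2, 296 pooled), Csk, a kinase that inhibits Src (127, 163 and 287), and CG32767 (122, 159 and 280). Others were in Raf, tai and HmgZ. Members with ACAGTG had a median signal of 118 against 106 without it, and those with CTGTAC 128 against 107. None of these differences was tested. Against promoter summits, 56 6-base words were more frequent at members (2.69% of those tested) and 59 less frequent (2.84%), led by CGATAG (2.52% against 20.7%, Fisher's exact test, adjusted p = 6.96e-23). Against distal intronic summits the count was 0 in both directions, by the same test.

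A protein-coding gene carried a member when a member summit lay in its span. Of 9005 genes with sequence that meets the rule, 385 did (4.28%), with a median signal of 114 at the strongest member of each, and members numbered 38.2 per Mb of such sequence. Genes of any of the 20 lists below carried members in 46 of 316 cases (14.6%, 67.5 per Mb). Both values are higher than those of all genes, but the lists were chosen with earlier results of these data known. No conclusion about listed genes is drawn from the difference. The 20 gene lists of pathways and tissues are set against these values as a description, without a test. Long introns give a gene more sequence that can hold a member, so the members per Mb are given beside the counts of genes.

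The BMP pathway that acts through Mad had members at 6 of 27 such genes (22.2%), 10 members in all and 121 per Mb. Mad led them, as given above. The receptor genes among them had weaker peaks. wit, a type II receptor that acts at motor nerve terminals, had 80.5 in replicate 1, 100.03 in replicate 2 and 175 pooled, with the TSS of CG32259 nearest. put, the type II receptor of Dpp signalling, had 30.5 in replicate 1, 61.5 in replicate 2 and 92.2 pooled. tkv, the type I Dpp receptor, had 23.05 in replicate 1, 46.8 in replicate 2 and 71.2 pooled, close to the lowest signal that passed the authors' threshold. shn, which encodes the corepressor Schnurri, carried 4 members with pooled signals of 105, 82.1, 80.9 and 79.4, and Smox, the Smad of the Activin branch, 1 with 42.3 in replicate 1, 35.4 in replicate 2 and 80.2 pooled. The median strongest signal over the 6 genes, 98.6, was below that over all carrying genes. Among the lists of Dpp target genes, 1 of 32 carried members (3.13%, 34.8 per Mb). This was ush, with the strongest member of all and a second one of 79.9 pooled, 27.2 in replicate 1 and 54.1 in replicate 2. Dad, brk, dpp, Med and Egfr carried 0 members. Whether each of these genes holds sequence that meets the rule is not given here. Of all genes with such sequence only 4.28% carried a member, so these counts of 0 are not read as a result.

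The EGF receptor pathway had members at 8 of 23 genes (34.8%), 9 members in all and 138 per Mb. edl, an antagonist of ETS factors, had 194 in replicate 1, 222 in replicate 2 and 418 pooled. S (Star), which carries the ligand precursor to where it is cleaved, had 80.5 in replicate 1, 125 in replicate 2 and 210 pooled. These were its strongest sites, and those of the intracellular relay were nearer the median. drk, the adaptor, had 170 pooled, with the TSS of mars nearest, sty (the inhibitor Sprouty) 124, and the kinase gene Raf 105. The ETS factors of the pathway followed, with 37.9 in replicate 1, 51.9 in replicate 2 and 87.8 pooled in pnt, the activator, and 78.5 pooled in aop, the repressor Yan. ru, a protease gene of the rhomboid family, had 71.6 pooled. In the Notch pathway 1 of 15 genes carried a member, neur, a ubiquitin ligase gene (62.9 in replicate 1, 90.2 in replicate 2, 158 pooled), at 22.6 per Mb.

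In the Wnt pathway 4 of 22 genes carried members (18.2%, 59.96 per Mb), which were sgg (117 pooled), nkd (79.5), Wnt4 (79.3) and arr (76.3). In the Hedgehog pathway 2 of 13 did (boi 132, rdx 104), in the insulin and TOR pathway 3 of 17 (Lk6 888, InR 297, sima 107), and in the JNK pathway with dorsal closure 2 of 13 (cno 500.5, kay 81.3). The ecdysone response list had 5 of 16 (31.3%, 63.7 per Mb), with the receptor EcR (186), br (140), Hr4 (106), tai (83.2) and Eip75B (73.1). In EcR, br, Hr4, kay, nkd and Wnt4 the nearest TSS was that of another gene. The Hippo pathway had 0 of 13, with 0.0295 Mb of sequence that meets the rule. Per Mb, the Hedgehog, insulin and TOR, and JNK lists had 104, 88.6 and 67.3 members.

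Among chromatin and cell-type lists, the Polycomb and trithorax group had members at 3 of 23 genes and 171 per Mb (Trl 565, kis 127, ph-p 127), of which 3 of 5 members were those of Trl. The list of chromatin and promoter factors had 1 of 14, again Trl. The amnioserosa and dorsal ectoderm list had 4 of 20 (ush 1239, EcR 186, LanA 77.4, tkv 71.2), and the trachea list 4 of 16 (sty 124, pnt 87.8, rib 75.7, tkv 71.2). Mesoderm and heart had 2 of 20 (kirre 152, ths 143), neural genes 2 of 15 (brat 301, elav 167), cell cycle genes 3 of 18 (trbl 180, CycE 71.2, Cdk4 71.0), germline genes 1 of 14 (pum 114), Hox genes 1 of 11 (Abd-B 74.8), and gap and pair-rule genes 0 of 12. Per Mb, mesoderm and heart (32.7), neural (29.8), Hox (25.3) and gap and pair-rule genes (0) lay below the 38.2 over all genes. Amnioserosa and dorsal ectoderm (67.4), trachea (66.2), cell cycle (107), germline (95.5) and chromatin and promoter factors (172) lay above it. By share of genes with a member, mesoderm and heart (10%), neural (13.3%) and Hox genes (9.09%) lay above the 4.28% over all genes. Each of these lists held only 0 to 5 members, too few to rank them. At the members given for kis, kirre, Cdk4 and pum the nearest TSS was that of another gene, as for ush and EcR. Several genes stand in more than 1 list, among them ush, EcR, tkv, pnt, sty and Trl.

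**Figure D5:**
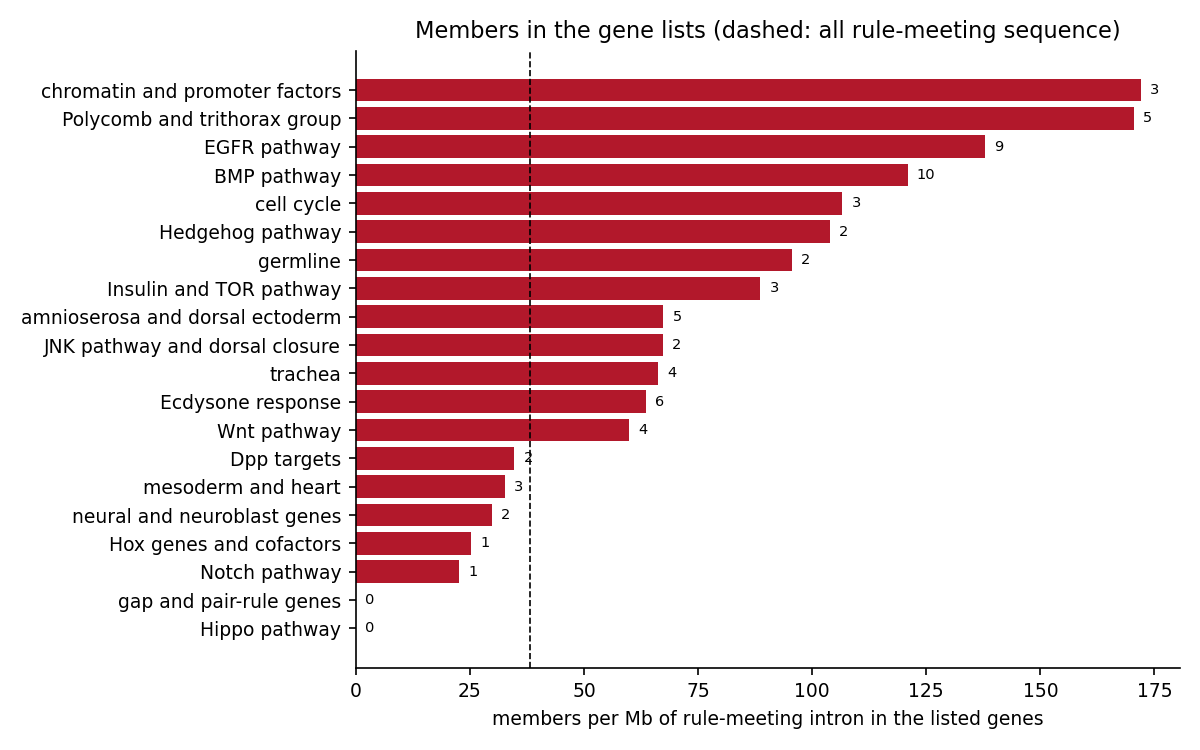
Members per Mb of sequence that meets the rule in the genes of each list, with the number of members beside each bar; the dashed line is the value for all such sequence, 38.2 per Mb. The highest bars are chromatin and promoter factors (172 per Mb) and the Polycomb and trithorax group (171), followed by the EGFR (138) and BMP (121) pathways. The Hippo pathway and gap and pair-rule lists have 0 members, in only 0.0295 and 0.0128 Mb.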

How the data were processed

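The deposited peak lists of ChIP-seq for Mad-eGFP in 2 embryo samples were used in build dm6. The text files deposited beside them say that the authors derived them from the alignments of the replicates and a control. They are 30000 peaks per replicate, 30000 called on both replicates together, and the 3590 that passed a cut on IDR, as the deposited lists are named. The deposited signal of each peak is the authors' value, and the sources used here give no aligner, caller, version or depth. Summits were placed with Ensembl release 115 annotation (transposable elements left out), and sequence came from the RefSeq release 6 genome. Replicate peaks were matched by at least 1 bp of overlap. Windows were 201 bp, with flanks centred 600 bp away. Tests were exact (McNemar, Fisher, sign), two-sided, with Benjamini-Hochberg adjustment over the 30 motifs, all words, or both class comparisons, at a threshold of 0.05. Alternatives were other distance limits, protein-coding TSSs only, the 1000 strongest peaks, each replicate's list, other windows, the left flank, matching by summit, the 2000 strongest peaks of each replicate, the gene of the nearest TSS, and the upper quartile of signal. Intervals are Wilson and Newcombe intervals at 95%. In the gene lists, 26 of the listed entries matched no protein-coding symbol and were left out. Genes named are those of the 20 strongest members, fixed genes (Mad, Med, Dad, brk, dpp, shn, ush, pnt, Egfr), list genes with members (up to 6 a list, and all in the EGFR and Notch lists), members at the limits, and those whose window is printed; the genes at the extremes of the replicate ratio and those named beside the Mad site and the 8-base word were added after their values were seen. 1 member that this rule names is not reported here. The members, lists and motifs were chosen with earlier results of these data known. The word scans, tested on simulated data, used Python 3.11.15 with SciPy 1.17.1.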

Additional observations from a re-analysis of the deposited data

How the results depend on the processing

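Of 166 repeats of tested differences under other settings, 122 stayed on the same side of the threshold. Those of them that passed also kept their direction, whereas those that passed in neither setting could change direction. Of 106 repeats of counts, 70 stayed within 1.5 times the reported count, and of 21 repeats of shares, 16 stayed within the reported interval. The cause of the changes was not tested. Replicate agreement below is the share of peaks among the strongest of both replicates, which is also a cut on signal. With a lower distance limit of 250 bp, the class took 16.2% of summits, 53.0% of members lay downstream, the share above the median signal exceeded that of distal intronic peaks by 7.15 points and passed, 0 motifs were more frequent than at promoters, and 100 6-base words were less frequent than at the flank. With a lower limit of 1000 bp, the class took 5.91%, and 0 motifs were more and 3 less frequent than at promoters. Replicate agreement exceeded that of distal intronic peaks by 7.45 points and no longer passed. A summit at the nearest TSS, now counted within 1000 bp of it, was 11.99 points more frequent and passed. In that setting 13 6-base words were higher and 3 lower, and 0 8-base words were higher. With an upper limit of 1000 bp, the class took 6.27%, 0 motifs were more frequent than at promoters and 2 than at distal summits, replicate agreement (5.28 points) and GC content against promoters (−7.21 points) no longer passed, and 30 6-base words were higher, 15 lower, and 0 8-base words higher. With an upper limit of 3000 bp, the class took 15.5%, the signal difference from distal peaks (7.55 points) and the share higher in replicate 2 against promoters (4.98 points) passed, and 133 6-base words were higher, 77 lower, and 5 8-base words higher.

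With TSSs of protein-coding genes only, replicate agreement against distal peaks was 6.16 points and did not pass, and 2 8-base words were higher. In the 1000 strongest peaks, 0 motifs were more and 1 less frequent than at promoters, replicate agreement differed from distal peaks by 0 points because 100% of each class agreed, GC content against promoters (−7.00 points) no longer passed, and 3 6-base words were higher, 1 lower, and 0 8-base words higher. With windows of 50 bp to each side, 1 motif was less frequent than at flanks, 50 6-base words and 0 8-base words were higher. With 200 bp, 2 motifs were more and 3 less frequent than at promoters and 1 more than at distal summits, GC content against promoters was 2.43 points in the opposite direction, and 28 6-base words were higher, 10 lower, and 2 8-base words higher. Against the left flank, 1 motif and 9 6-base words were less frequent. Matching summits within 100 bp gave a replicate agreement of 5.07 points, which did not pass, and the upper quartile of signal a difference from distal peaks of 9.94 points, which passed.

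Leaving out a replicate, with the other replicate's strongest 3590 peaks, gave signal differences from distal peaks of 6.25 to 7.69 points, GC differences from promoters of −12.7 to −5.50 points, and a summit at the nearest TSS 2.40 to 6.96 points more often. It gave 0 to 1 motifs more frequent than at promoters, 59 to 93 6-base words higher and 23 to 51 lower, and 0 to 4 8-base words higher. Without replicate 2 the signal and TSS differences passed and the GC difference did not.

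No paired analysis was possible because the samples form 1 group. Depth could not be assessed from peak lists.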
